A study of Homo sapiens with 7 samples.

Results

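The 9 genes GYPB, GYPC, RHAG, RHD, RHCE, KEL, XK, ERMAP and SLC4A1 encode membrane proteins that carry blood group antigens on the red cell, SLC4A1 being the gene of band 3. They were taken by symbol from a table of 32738 genes, and each of the 9 was present and abundant enough to test. RNA was sequenced from HUDEP-2, an immortalised human erythroid progenitor line made from cord blood, after 72 h of erythroid differentiation with 3 IU/ml erythropoietin. All groups had first been grown with stem cell factor, erythropoietin, dexamethasone and doxycycline and received lentivirus for CRISPR interference, a method that brings a Cas9-based repressor to DNA matched by a guide RNA. Of the 7 libraries, 3 carried a non-targeting guide (the controls below), and 2 each carried guide 1 or guide 2, both aimed at an enhancer of TMCC2. All libraries came from this 1 line, and no label states that replicates were grown separately. The p-values therefore reflect only how much these libraries vary, which may be technical.

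Blood group antigens are inherited differences in molecules of the red cell surface. Band 3 exchanges chloride for bicarbonate, which lets blood carry carbon dioxide, and it anchors the membrane to its skeleton through ankyrin. Around band 3 sit glycophorins and the Rh complex, in which RHAG, an ammonia and gas channel subunit, joins the RhD and RhCE proteins and is needed for them to reach the surface. The Kell protein is an endopeptidase held by a disulfide bond to XK, a lipid scramblase homologue whose loss causes McLeod syndrome. Glycophorin C ties the skeleton to the membrane at its actin junctions, glycophorin B carries the Ss antigens, and ERMAP, a butyrophilin-like protein, carries the Scianna antigens.

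TMCC2, the guides' target, stood at 832.5, 839 and 937 CPM (counts scaled to a common library size by the TMM method) in the controls, at 229 and 219 CPM with guide 1, and at 229.5 and 260.4 CPM with guide 2. Library totals ran from 9780800 to 11350113 counts. The red cell genes HBB (160400 CPM or more), ALAS2 (7589 CPM or more) and GATA1 (409 CPM or more) were abundant in every library. Summed white cell markers reached at most 5.24 CPM and stromal markers at most 0.368 CPM, and 7 of 19 and 5 of 8 of these genes had 0 counts throughout. Megakaryocyte markers, 5 of 10 of them at 0, summed to 177 to 208 CPM in the controls, 205 to 214 CPM under guide 1 and 183 to 198 CPM under guide 2. Mast cell and basophil markers, 2 of 5 at 0, summed to 19.2 to 23.3, 18.9 to 20.8 and 19.1 to 19.2 CPM in the same order. The part of these cells in the results was not tested. Non-targeting replicate 1 stood apart. Over 9424 genes with an annotated transcript, its deviation from the other non-targeting libraries followed transcript GC content with a Spearman rho of -0.70. Test results of the 9 genes that rest on it are therefore given with and without it. Genes and lists named for comparison, and the ratio of EPB42 to SLC4A1, are given with all 7 libraries only.

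RHD and RHCE are neighbouring copies of 1 ancestral gene on chromosome 1, and how far reads can tell them apart bears on their values below. Their principal transcripts in GENCODE v29 have coding sequences of 1251 bases without the stop codon, which differed at 44 positions (96.5% identity). The longest stretch without a difference covered 115 bases. The 90 bases with the most differences, coding positions 973 to 1062 counted from the A of the start codon, held 13 of them and are shown 5′ to 3′, with the differing bases in capitals.
RHD: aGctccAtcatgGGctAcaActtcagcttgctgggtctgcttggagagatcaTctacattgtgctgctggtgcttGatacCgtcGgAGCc
RHCE: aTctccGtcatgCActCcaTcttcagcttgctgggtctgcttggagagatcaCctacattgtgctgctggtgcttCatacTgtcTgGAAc
Of all windows of 50 bases in the RHD transcript 18.7% occurred exactly in a transcript of another gene, and for RHCE the share was 33.8%, most of it from the other Rh gene. A read that lies within the 115-base stretch carries no difference at all. For GYPB, which belongs to a cluster of near-identical glycophorin genes on chromosome 4, 24.8% of windows were shared. The share was 8.32% for ERMAP, from genes of the opposite strand, 0.917% for SLC4A1 and 0 for GYPC, RHAG, KEL and XK. The treatment of reads with several matches is not given in the sources used here, so single values of RHD, RHCE and GYPB are uncertain. The libraries do not mark strand, and exons of RHD, RHCE and ERMAP overlap those of genes on the opposite strand. TMEM50A, which overlaps RHCE, had 1970 to 2461 counts a library, close to the 1922 to 2508 of RHCE itself. C1orf63, an older symbol of RSRP1, overlaps RHD and had 1043 to 1742 counts against 3370 to 4076 for RHD. How many of their reads were counted for the Rh genes was not tested.

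Sequence before the start sites was examined because GATA1, the master transcription factor of red cells, and KLF1 bind short motifs there. RefSeq promoters were at hand for 7 of the 9 genes. In the 250 bases before at least 1 annotated start, 7 of these 7 genes held a GATA hexamer on either strand (the letters AGATAA, the variant TGATAA, the variant AGATAG or the variant TGATAG), as did 26.2% of 27305 genes with a promoter. The letters CACCC, the core of KLF1 sites, were present on either strand in 7 of 7 and in 58.3% of all genes. Not every start had a hexamer, since another window each of RHCE and ERMAP held 0. RHD and RHCE each have more than 1 annotated start. Of their windows, those most alike were taken, and these differed at 2 of 250 bases (99.2% identity). They are shown with those of RHAG and KEL, the partners in the Rh and Kell complexes, 5′ to 3′ on each gene's strand, with GATA hexamers and CACCC on either strand in capitals. The build is GRCh38.p14, whereas the reads had been aligned to GRCh37. RHD lies at chr1:25272259-25272508 (plus strand), RHCE at chr1:25420826-25421075 (minus), RHAG at chr6:49636840-49637089 (minus) and KEL at chr7:142962364-142962613 (minus).
RHD: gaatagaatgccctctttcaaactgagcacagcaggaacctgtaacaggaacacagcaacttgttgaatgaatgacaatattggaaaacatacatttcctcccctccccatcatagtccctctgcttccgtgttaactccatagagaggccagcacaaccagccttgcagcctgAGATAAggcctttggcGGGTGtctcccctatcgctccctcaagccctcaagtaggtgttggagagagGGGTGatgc
RHCE: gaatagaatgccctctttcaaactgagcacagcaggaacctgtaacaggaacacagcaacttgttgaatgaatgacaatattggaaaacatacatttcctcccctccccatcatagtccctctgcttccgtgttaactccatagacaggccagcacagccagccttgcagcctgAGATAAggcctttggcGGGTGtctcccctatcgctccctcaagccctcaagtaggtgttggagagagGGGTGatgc
RHAG: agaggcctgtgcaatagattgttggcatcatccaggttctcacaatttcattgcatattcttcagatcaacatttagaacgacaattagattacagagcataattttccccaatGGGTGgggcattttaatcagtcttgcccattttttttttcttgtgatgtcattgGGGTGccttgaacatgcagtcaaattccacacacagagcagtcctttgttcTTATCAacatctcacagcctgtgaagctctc
KEL: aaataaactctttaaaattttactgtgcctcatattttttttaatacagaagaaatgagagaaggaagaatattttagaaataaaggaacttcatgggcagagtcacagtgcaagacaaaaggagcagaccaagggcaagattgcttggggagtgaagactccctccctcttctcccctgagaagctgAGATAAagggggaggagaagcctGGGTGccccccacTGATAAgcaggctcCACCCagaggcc
A match describes these letters only. The RHD and RHCE windows shown, picked as the most alike, share 1 hexamer at the same place, RHAG has 1 and KEL has 2.

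Levels of the 9 genes spanned a wide range in the non-targeting libraries. Per kilobase of median GENCODE transcript, RHAG was highest at 2732 ± 65.5 CPM per kb (SD, n = 3), rank 34 among 9424 genes. It was followed by GYPC at 1944 ± 279.7, GYPB at 1290 ± 121, SLC4A1 at 502 ± 65.4 and KEL at 361 ± 46.7 CPM per kb. RHD stood at 244 ± 17.6, RHCE at 174 ± 27.9, ERMAP at 109 ± 6.85 and XK at 72.2 ± 10.5 CPM per kb. The 3 libraries of neighbours in this order did not overlap. The upper 4 places were the same with the longest transcript in place of the median one, but the lower 5 were not: KEL then stood at 83.4 CPM per kb, below RHD (119), RHCE (115) and ERMAP (105). The channel subunit RHAG therefore exceeded both Rh genes on either length. Together the 9 genes took 0.943% to 0.994% of the counts of a library.

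**Figure D1:**
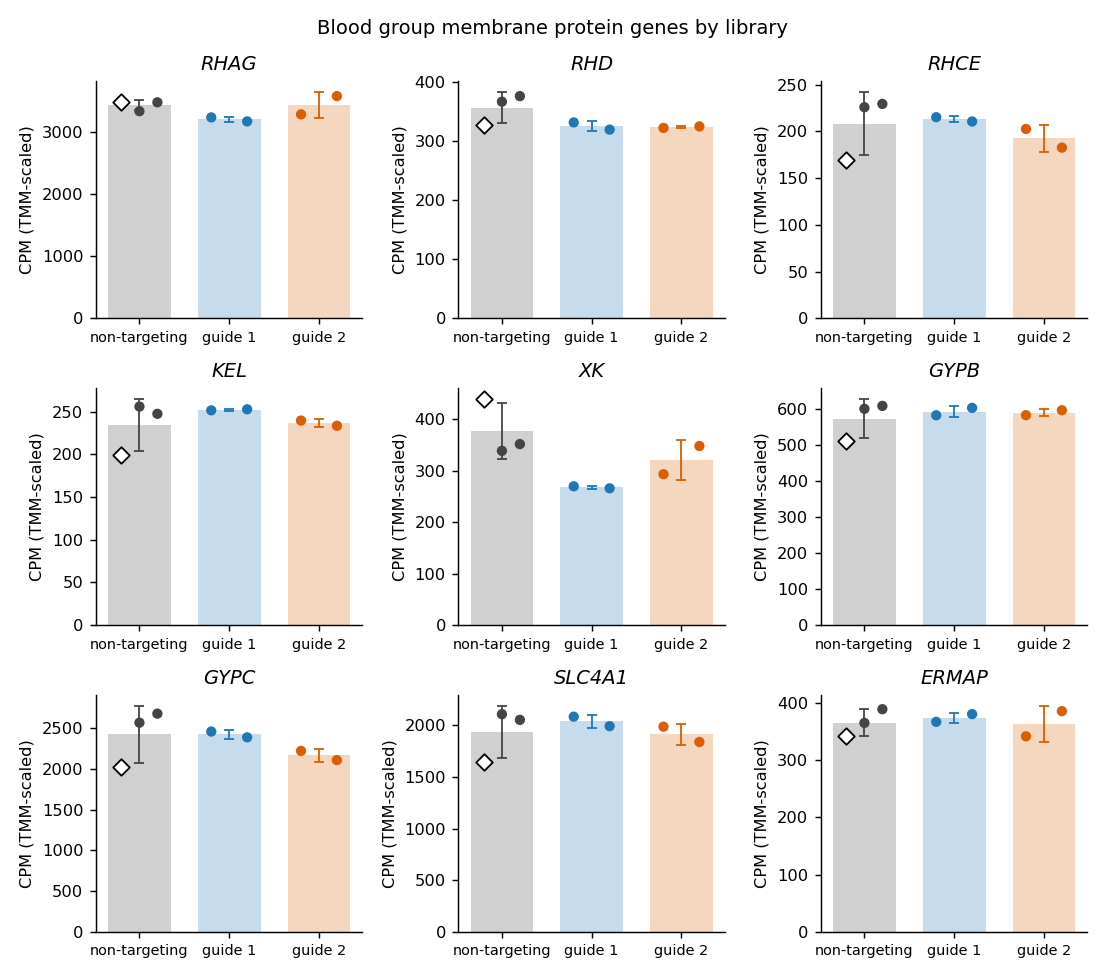
TMM-scaled CPM (vertical axes, from 0) of each gene in the 3 non-targeting, 2 guide 1 and 2 guide 2 libraries; bars are group means, error bars SDs, points libraries, and open diamonds non-targeting replicate 1. That library is the lowest of its group for every gene but XK, where it is the highest at 439 CPM, and RHAG.

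No blood group gene was called for either guide by the edgeR quasi-likelihood test with all 7 libraries. For both guides against non-targeting, 0 of the 9 had an adjusted p (Benjamini-Hochberg) under 0.05, and 0.0196% of 10212 tested genes did. An unadjusted p under 0.05 was reached by 1 of the 9, XK, against 4.19% of all genes, and for 0 of the 9 were the 4 guide libraries all above or all below the 3 non-targeting ones, against 5.4% of all genes. Log2 differences ran from -0.36 to 0.06 with a median of -0.04, where the median of all genes was -0.01. Of the 9, 4 were positive and 5 negative. With guide 1 alone 0 were called (0.0294% of all genes) and 1, XK, had an unadjusted p under 0.05 (4.78%). With guide 2 alone 0 were called (0.00979%) and 0 had an unadjusted p under 0.05 (2.75%). Guide 2 against guide 1 gave 0 called (0% of all genes) and 0 at an unadjusted p under 0.05 (2.86%). The guides share their controls, so their values are given side by side and not as separate evidence.

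In the Kell complex, XK was the member farthest from its non-targeting level. It stood at 439, 338 and 351 CPM in the controls, 269 and 265.5 CPM under guide 1, and 293 and 348 CPM under guide 2. Both guide 1 libraries were below all 3 controls, while guide 2 replicate 2 lay among them. The log2 difference was -0.36 for both guides (SE 0.11, 95% interval -0.59 to -0.13, unadjusted p = 0.00441, adjusted p = 0.998, edgeR). It was -0.49 with guide 1 (SE 0.13, 95% interval -0.77 to -0.21, adjusted p = 0.877, edgeR) and -0.23 with guide 2 (SE 0.13, 95% interval -0.51 to 0.04, adjusted p = 0.999, edgeR). The high control is non-targeting replicate 1, whose XK level was 0.35 higher on the log2 scale than the mean of the other controls. Without that library XK fell with guide 1 by 0.37 on the log2 scale (SE 0.07, adjusted p = 0.00866, edgeR), a call that 0.584% of genes received. In bulk RNA, fewer cells of a type and less RNA per cell cannot be told apart. Both guides together gave -0.24 (adjusted p = 0.0795, edgeR) and guide 2 gave -0.105 (adjusted p = 0.538, edgeR). XK transcripts have a GC content of 41.9%, the lowest of the 9 genes, so the comparison was repeated with a correction for GC content, chosen after seeing the data. With all 7 libraries corrected, XK fell with guide 1 by 0.37 (SE 0.07, adjusted p = 0.0345, edgeR), where 0.287% of 9424 genes were called, and was at -0.29 for both guides (adjusted p = 0.0768, edgeR; 0.117% called). With the correction and without non-targeting replicate 1 it fell by 0.37 with guide 1 (adjusted p = 0.00102, edgeR; 0.792% called) and by 0.30 with both guides (adjusted p = 0.0033, edgeR; 0.514% called). With guide 2 alone and the correction, XK was not called, at -0.21 with all 7 libraries (adjusted p = 0.58, edgeR). Without non-targeting replicate 1 it was at -0.22 there (adjusted p = 0.127, edgeR), also not called. The XK difference was negative for both guides and for each guide under every alternative tried. The guides differed from each other by 0.26 (95% interval -0.04 to 0.56, adjusted p = 0.983, edgeR), which was not called.

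KEL, whose protein is the disulfide partner of XK, was called in no comparison. It stood at 200, 256 and 248 CPM in the controls, 252 and 253 CPM under guide 1, and 239.7 and 234 CPM under guide 2. The guide libraries lay inside the range of the controls, and the log2 difference for both guides was 0.06 (95% interval -0.16 to 0.28). The ratio of KEL to XK counts was 0.456, 0.757 and 0.704 in the controls, 0.934 and 0.953 under guide 1, and 0.818 and 0.672 under guide 2. Both guide 1 ratios and 1 guide 2 ratio were above every control. The difference of both guides from non-targeting was 0.42 on the log2 scale (exact permutation test, two-sided, p = 0.143, adjusted p = 0.357 over 5 ratios, n = 3 and 4). Without non-targeting replicate 1, the control with the lowest ratio, the difference was 0.195 (exact permutation p = 0.333). With 3 against 4 libraries the test compares only 35 splits, so its p is coarse. A ratio that alone differed could not have reached an adjusted p under 0.05 over the 5 ratios. Without non-targeting replicate 1 there are fewer splits still, and even the unadjusted p could not fall under 0.05.

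In the Rh complex, RHAG stood at 3473, 3332 and 3475 CPM in the controls, 3232 and 3168 CPM under guide 1, and 3281 and 3575 CPM under guide 2. Guide 1 libraries were below the controls and guide 2 libraries on either side of them. Across the 7 libraries it varied least of the 9 genes, with a coefficient of variation of 4.42%, and its log2 difference for both guides was -0.05 (95% interval -0.22 to 0.12). RHD, which carries the D antigen, stood at 328, 367 and 376.5 CPM in the controls, 332 and 320 CPM under guide 1, and 323 and 325 CPM under guide 2. The 4 guide libraries were close together, and guide 2 lay below all controls, by a small step under non-targeting replicate 1. The log2 difference of RHD was -0.14 for both guides (SE 0.09, 95% interval -0.33 to 0.05), -0.13 with guide 1 and -0.14 with guide 2. It was negative under every alternative against non-targeting and was called under none, the lowest adjusted p being 0.134 (edgeR, guide 2, without non-targeting replicate 1). RHCE, which carries the C and E antigens, stood at 170, 226 and 229 CPM in the controls, 215 and 211 CPM under guide 1, and 203 and 183 CPM under guide 2. Its lowest value was a control, and the difference for both guides was -0.04 (95% interval -0.28 to 0.20). Of 9 genes, libraries did not overlap between guide 1 and non-targeting for 2, RHAG and XK, both lower, against 21.6% of all genes. For guide 2 this held for 1, RHD, lower, against 15% of all genes.

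The balance within the Rh complex was set beside these levels. RHCE counts were 0.581 ± 0.0547 of RHD counts in the non-targeting libraries (SD, n = 3) and 0.624 ± 0.0435 with a guide (SD, n = 4; exact permutation p = 0.343). RHAG counts were 6.11 ± 0.753 times those of RHD and RHCE together without a guide (SD, n = 3) and 6.29 ± 0.521 times with one (SD, n = 4; exact permutation p = 0.6). With all 7 libraries, neither difference was larger than the spread between libraries. Over the 5 ratios tested the adjusted p of the exact permutation tests ran from 0.357 to 0.6. On the log2 scale the difference between guide and non-targeting libraries was 0.11 for RHCE over RHD and 0.025 without non-targeting replicate 1. For RHAG over both Rh genes it was 0.046 and, without that library, 0.145. The 4 guide ratios of RHAG (5.91 to 7.04) lay above non-targeting replicates 2 and 3 (5.62 and 5.74), while replicate 1 stood at 6.98. These are ratios of counts, not of molecules, since transcripts differ in length and part of the reads fit both Rh genes.

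**Figure D2:**
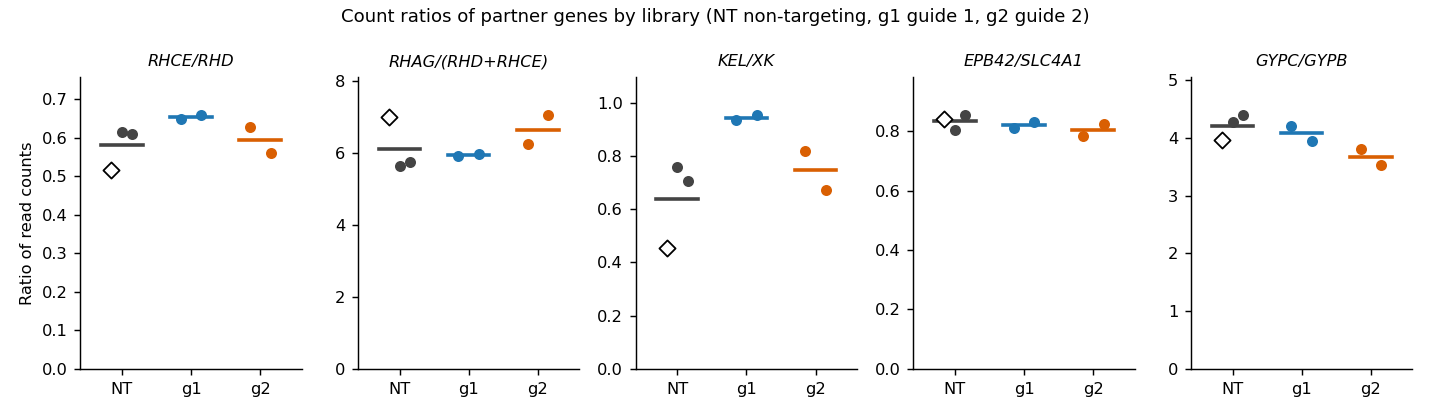
Ratio of read counts (vertical axes, from 0) of 5 gene pairs in each library; points are libraries, lines group means, and open diamonds non-targeting replicate 1. KEL/XK is 0.934 and 0.953 with guide 1 against 0.456 to 0.757 in the controls, and EPB42/SLC4A1 varies least.

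Band 3 transcripts did not differ detectably. SLC4A1 stood at 1645, 2107 and 2052 CPM in the controls, 2083 and 1991 CPM under guide 1, and 1986 and 1838 CPM under guide 2. Every guide library lay inside the range of the controls, which non-targeting replicate 1 sets at its lower end. The log2 difference for both guides was 0.03 (95% interval -0.18 to 0.24), and -0.08 without that library (95% interval -0.18 to 0.03). EPB42, which encodes a skeletal protein bound to band 3, kept 0.833 ± 0.0253 of the SLC4A1 counts in the non-targeting libraries (SD, n = 3) and 0.812 ± 0.0201 with a guide (SD, n = 4; exact permutation p = 0.286). Of 17 partners fixed as a list, such as ankyrin and adducins, 17 were tested and 0 called in either direction, with a median of -0.02. Among those with the lowest unadjusted p were CD47, an Rh complex protein that signals to macrophages (-0.19, SE 0.13), STOM, stomatin (-0.13), and DMTN, an actin-bundling protein (-0.09). The genes whose log2 CPM followed SLC4A1 most closely over the 7 libraries, of 2344 with a mean of at least 50 CPM, were RPS20 (Pearson r 0.997, Spearman rho 1), NDUFS8 (0.996, 0.964) and PYCRL (0.995, 1). All 7 points share the libraries' depth and GC trend.

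Among the glycophorins, GYPC stood at 2025, 2566 and 2677 CPM in the controls, 2457 and 2386 CPM under guide 1, and 2220 and 2107 CPM under guide 2. Guide 2 libraries were below non-targeting replicates 2 and 3 and above replicate 1. The log2 difference for guide 2 was -0.16 (95% interval -0.42 to 0.09), and for both guides -0.08 (95% interval -0.30 to 0.13). Without non-targeting replicate 1, GYPC fell with guide 2 by 0.28 on the log2 scale (SE 0.06, adjusted p = 0.0116, edgeR), in a comparison that called 1.27% of genes. That call was lost with the GC content correction added (-0.18, adjusted p = 0.12, edgeR; 0 of the 9 called against 0.385% of genes), and GYPC transcripts have the highest GC content of the 9 at 57.9%. With all 7 libraries and the correction, guide 2 gave 0 calls among the 9 (0.0424% of genes). For both guides without non-targeting replicate 1, 0 of the 9 were called against 0.524% of genes, and GYPC came nearest at -0.195 (adjusted p = 0.0601, edgeR). GYPB stood at 512, 601 and 609 CPM in the controls, 583 and 603.5 CPM under guide 1, and 583 and 597 CPM under guide 2. Its 4 guide libraries lay within the controls, and the log2 difference was 0.04 (95% interval -0.15 to 0.24). The ratio of GYPC to GYPB counts was 4.21 ± 0.225 without a guide (SD, n = 3) and 3.88 ± 0.287 with one (SD, n = 4; exact permutation p = 0.143). The 4 guide ratios (3.529 to 4.216) lay below non-targeting replicates 2 and 3 (4.271 and 4.395), while replicate 1 stood at 3.958.

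ERMAP stood at 343, 365 and 389 CPM in the controls, 367 and 380.5 CPM under guide 1, and 342 and 386 CPM under guide 2. The groups overlapped throughout, and the log2 difference for both guides was 0.01 (95% interval -0.18 to 0.21). Genes on the opposite strand that share exon sequence with it were scarce: CCDC23, an older symbol of SVBP, had at most 185 counts and the antisense gene RP11-342M1.3 at most 42.

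**Figure D3:**
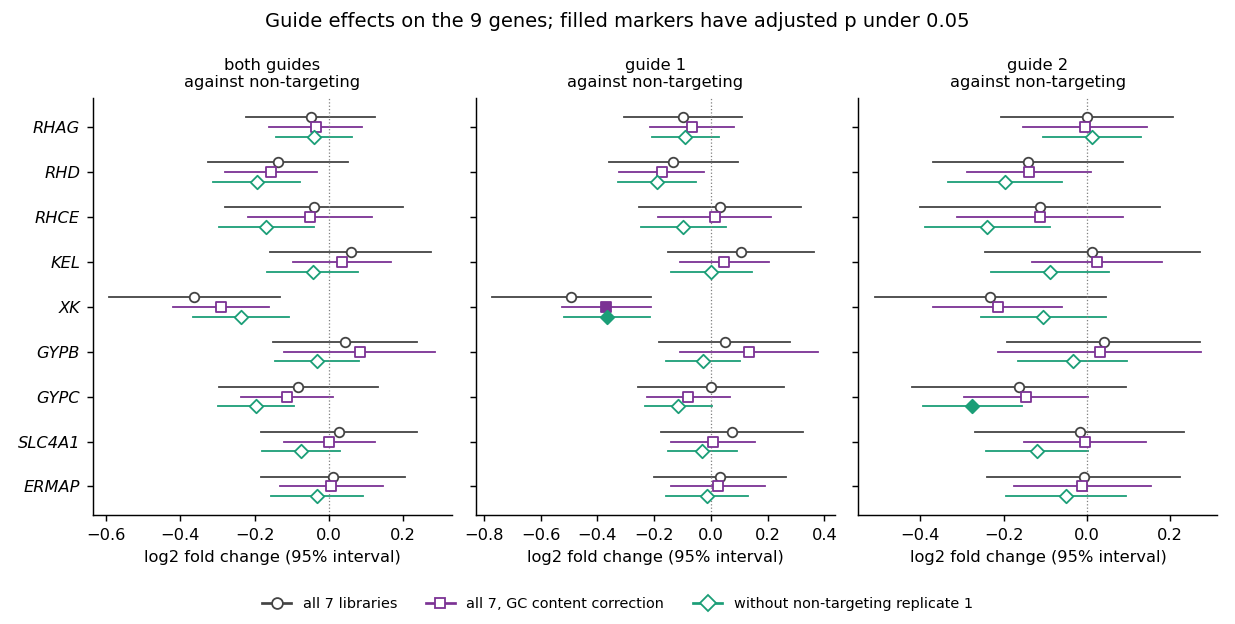
Log2 fold changes (horizontal axes) of the 9 genes for both guides, guide 1 and guide 2 against non-targeting, with 95% intervals from edgeR; circles are all 7 libraries, squares the same with GC content correction, diamonds the fit without non-targeting replicate 1, and filled markers have an adjusted p under 0.05. XK with guide 1 is filled in 2 of its 3 fits, at -0.37 in each, and GYPC with guide 2 in 1, at -0.28.

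Several of the 9 genes departed together in 1 library. In non-targeting replicate 1, on the log2 scale and relative to the mean of the other controls, RHCE stood at -0.42, GYPC at -0.37, SLC4A1 at -0.34 and KEL at -0.33, while XK stood at 0.35 and RHAG at 0.03. Median transcript GC content was 50.4%, 57.9%, 55.6%, 54.4%, 41.9% and 46.7% in the same order. GYPB went against that order, at -0.24 with a GC content of 42.2%. Over the 7 libraries GYPC and RHCE had a Pearson r of 0.972, which was 0.972 without non-targeting replicate 1. KEL and GYPB had 0.916, which dropped to 0.244 without it. KEL and XK had -0.776, and -0.329 without it, and RHAG and XK 0.809, and 0.896 without it. These are descriptions over 7 libraries that share depth and GC trends, and the part of GC content in them was not tested.

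**Figure D4:**
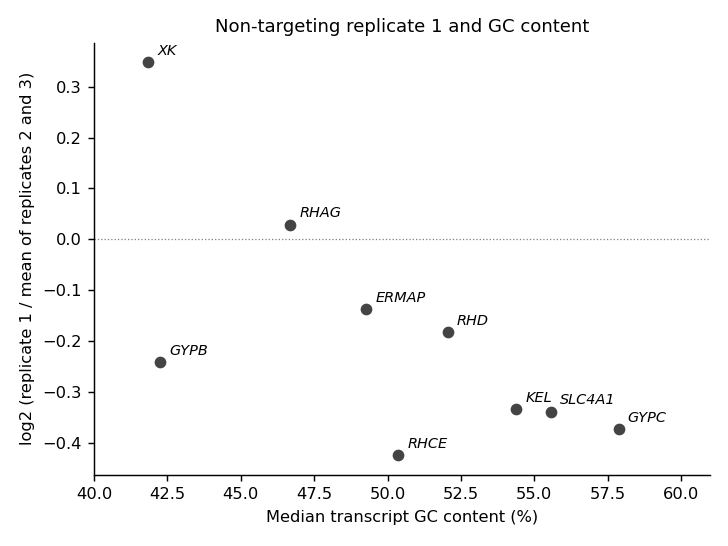
Log2 ratio of non-targeting replicate 1 to the mean of non-targeting replicates 2 and 3 (vertical axis) against median transcript GC content in percent (horizontal axis), 1 point per gene. XK lies highest at 0.35 and 41.9% GC, GYPC at -0.37 and 57.9%, and GYPB at -0.24 and 42.2% lies apart from the other low-GC genes.

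Without non-targeting replicate 1 the log2 differences for both guides were negative for 9 of the 9 genes, with a median of -0.08. Of all 10107 genes tested 49.8% were negative, with a median of 0.00. With all 7 libraries 5 of 9 were negative, so the common direction rests on leaving that library out. The sizes were -0.24 for XK, -0.195 for GYPC, -0.19 for RHD and -0.17 for RHCE, and between -0.08 and -0.03 for the other 5.

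Other genes of blood group antigens were listed for comparison. Of 29 genes of further antigen-bearing proteins, 27 were tested and 0 called in any comparison, with a median of -0.01 for both guides. PRNP, the prion protein gene, stood at 18 ± 4.09 CPM without (SD, n = 3) and 22.6 ± 0.937 CPM with a guide (SD, n = 4), a log2 difference of 0.32 (SE 0.15). ABCC4 and ABCG2, both exporters of the ABC family, were at -0.20 and -0.17, and ART4, the Dombrock gene, at -0.15. ABCG2 was at -0.35 with guide 1 and 0.0075 with guide 2. Of 14 glycosyltransferases and helpers that build carbohydrate antigens, 8 were tested and 0 called, with a median of -0.10. C1GALT1, which extends O-linked sugars such as those of glycophorins, was at -0.32 (SE 0.17), and A4GALT, the P1PK synthase, at -0.24. FUT1, which makes the H antigen, was at -0.10, with 0.06 for guide 1 and -0.26 for guide 2. GCNT2, the I-branching enzyme, was at -0.10. Of 35 family relatives of the 9 genes, only 9 were abundant enough to test and 0 were called. Their median was -0.28 for both guides where all genes had -0.01. The guides differed widely over these relatives, guide 2 against guide 1 running from -1.39 to 1.21. Among them were VPS13A, the chorea-acanthocytosis gene whose protein binds XK (-0.28, SE 0.19), the endopeptidases ECE2 (-0.41) and ECE1 (-0.15), and BTNL9 (-0.19). ECE2, ECE1 and BTNL9 were low, at 7.3, 9.7 and 5.0 CPM in the controls. BTNL9 was at -0.79 with guide 1 and 0.42 with guide 2.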

How the data were processed

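For 7 libraries the authors deposited raw counts, 1 row per gene symbol, from Smart-seq2 and Nextera indexing, a chemistry without strand marks or molecular identifiers, per the labels' protocols. STAR and GRCh37 (hg19) are named per the submitters' processing notes. Not given in the sources used here are the counting program, the annotation and the treatment of reads with several matches. Columns were matched to samples by title. Counts were analysed with edgeR 4.0.16 in R 4.3.3. Genes passing filterByExpr (minimum count 10) numbered 10212, scaling was by TMM, and 1 quasi-likelihood model of the 3 groups took in all 7 libraries (4 residual degrees of freedom), with two-sided tests and Benjamini-Hochberg adjustment over all genes. CPM are relative to TMM-scaled totals, except marker sums, which use total counts. Ratios of counts were compared by exact permutation tests on the log2 scale. Lengths, GC content and overlaps came from GENCODE v29 (GRCh38), matched by symbol for 92.3% of tested genes, and promoters from RefSeq (GRCh38.p14). Shared sequence was counted in exact windows of 50 bases on either strand of each principal transcript. The GC content correction, a per-library trend used as an offset, was added after seeing the data. Scripts were tested on simulated data. Alternatives were RLE, TMMwsp and total-count scaling, DESeq2 1.42.0, no filter, only the groups compared, a replicate block and leaving out each library. Named genes were the 9, TMCC2, up to 4 per context list by unadjusted p with at least 5 CPM in a group, and the 3 most like SLC4A1. Members and lists were chosen with earlier results of these data known. Some genes of these families are not reported here.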

Additional observations from a re-analysis of the deposited data

How the results depend on the processing

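Depth was close between libraries. The parts of counting error and of the spread between libraries in the precision were not compared. XK and RHD were lower than in the non-targeting libraries under every alternative run, and of the 9 genes only XK (both guides, guide 1) and GYPC (guide 2) were ever called. Genes called for both guides numbered 4 with DESeq2, 8 without a filter, 1 with the replicate block, 11 with GC content correction and 48 with that correction and without non-targeting replicate 1, and 1 to 53 leaving out single libraries. For guide 1 they numbered 6 with DESeq2, 19 without a filter, 27 and 74 with the corrections, and 1 to 59 leaving out libraries. For guide 2 they numbered 3, 4, 4 and 36 in the same order, and 1 to 128. For guide 2 against guide 1 they numbered 2 with DESeq2, 2 without a filter, 1 with the block, 19 with only the groups compared, 2 and 33 with the corrections, and 0 to 32. Each highest leave-out count came without non-targeting replicate 1. Among the 9 genes, 1 was called for guide 1 with GC content correction, 1 each for both guides and guide 1 with that library also left out, and 0 to 1 for each single guide leaving out libraries. Numbers were not taken as pairs, since no label says that a number marks a shared culture or day. With 2 libraries in each guide group, deviations mirror each other, so whether same-numbered libraries deviate together could not be decided. The replicate block called 0 of the 9. Log2 values that turned sign, none of them called, follow. With the replicate block GYPC was 0.00086 and RHCE 0.040 for both guides, GYPC 0.082 for guide 1, and ERMAP 0.037 and SLC4A1 0.032 for guide 2. Without a filter GYPC was 0.0026 for guide 1. With total counts ERMAP was 0.035 and SLC4A1 0.029 for guide 2, and GYPB 0.059, RHD 0.058 and ERMAP 0.028 for guide 2 against guide 1. With GC content correction RHAG was -0.0046 for guide 2 and RHD 0.033 for guide 2 against guide 1. With that correction and without non-targeting replicate 1, GYPB was -0.088, KEL -0.011, ERMAP -0.036 and SLC4A1 -0.037 for both guides, GYPB -0.036, RHCE -0.10, ERMAP -0.017 and SLC4A1 -0.031 for guide 1, GYPB -0.14, RHAG -0.034 and KEL -0.023 for guide 2, and RHD 0.033 for guide 2 against guide 1. Leaving out single libraries gave, for both guides, GYPB -0.032 to 0.089, RHCE -0.17 to 0.034, KEL -0.044 to 0.13, ERMAP -0.036 to 0.058 and SLC4A1 -0.075 to 0.094. For guide 1 it gave GYPB -0.029 to 0.093, GYPC -0.115 to 0.077, RHCE -0.097 to 0.11, ERMAP -0.013 to 0.078 and SLC4A1 -0.031 to 0.14. For guide 2 it gave GYPB -0.034 to 0.085, RHAG -0.064 to 0.062, KEL -0.089 to 0.082, ERMAP -0.099 to 0.078 and SLC4A1 -0.12 to 0.049. For guide 2 against guide 1 it gave GYPB -0.033 to 0.017, RHD -0.036 to 0.018 and ERMAP -0.13 to 0.051. For guide against non-targeting libraries, the log2 difference in the ratio of RHAG to RHD plus RHCE ran from -0.011 to 0.145. The cause was not tested.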
